A study of Homo sapiens with 12 samples.

Results

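A set of 7 long non-coding RNAs with a described place in leukaemia or T cells was followed by poly-A RNA sequencing in CUTLL1, an established line from a human T-cell lymphoblastic malignancy that carries a rearranged, constitutively active NOTCH1. The members are NALT1, PVT1, NEAT1, MALAT1, MIAT, HOTAIRM1 and CYTOR, found by matching each symbol to its Ensembl identifier, which gave 7 of the 62069 features in the table. Each of the 7 had a normalised read count of at least 10 in at least 3 libraries and so entered the tests, with 19281 features in all. The 4 groups of 3 libraries were labelled as treated with 1 µM of Compound E, a gamma-secretase inhibitor (GSI), for 48 h, with DMSO, its solvent, for 48 h, with GSI for 12 h and with DMSO for 12 h. All came from the same line, grown in RPMI with fetal bovine serum, and the labels do not say whether the numbered libraries were separate cultures, so the p-values measure the spread between libraries.

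Long non-coding RNAs act without being translated, in the nucleus as scaffolds and regulators of neighbouring genes, or in the cytoplasm. NALT1 and PVT1 lie beside the oncogenes NOTCH1 and MYC, and NOTCH1 is the protein whose activating cleavage gamma-secretase performs, with MYC among its best known targets in T-cell leukaemia. NEAT1 is the architectural RNA of paraspeckles, and MALAT1 its neighbour on chromosome 11 that gathers in nuclear speckles, the stores of splicing factors. MIAT is a nuclear RNA also expressed in neurons, HOTAIRM1 is transcribed from the HOXA cluster and is best known from myeloid differentiation, and CYTOR is a largely cytoplasmic RNA raised in many tumours.

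The sequences below show why the positions and the partly shared sequence of members matter for reading the values. They are RefSeq sequences on build GRCh38.p14, each read 5′ to 3′ on the strand of its gene, and the table of RefSeq promoters held 4 of the 7 members. NALT1 runs away from NOTCH1 on the opposite strand of chromosome 9. The RefSeq starts of the pair are 1794 bases apart and the GENCODE 29 starts 426 bases, so that the GENCODE start of NALT1 falls within the window of 300 bases around the RefSeq start of NOTCH1. The NALT1 window is chr9:136547592-136547891 on the plus strand, with the 50 bases after the start in capitals. For NOTCH1 the 250 bases before the start are shown, chr9:136546049-136546298 on the minus strand, with the 21 bases of the microRNA miR-4674 in capitals.
NALT1: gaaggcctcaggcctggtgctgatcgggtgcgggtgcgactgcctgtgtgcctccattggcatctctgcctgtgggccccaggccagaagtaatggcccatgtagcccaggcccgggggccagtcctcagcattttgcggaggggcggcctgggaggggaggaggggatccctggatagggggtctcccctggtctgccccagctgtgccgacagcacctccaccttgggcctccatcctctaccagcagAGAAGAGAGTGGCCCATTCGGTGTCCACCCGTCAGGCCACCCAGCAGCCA
NOTCH1: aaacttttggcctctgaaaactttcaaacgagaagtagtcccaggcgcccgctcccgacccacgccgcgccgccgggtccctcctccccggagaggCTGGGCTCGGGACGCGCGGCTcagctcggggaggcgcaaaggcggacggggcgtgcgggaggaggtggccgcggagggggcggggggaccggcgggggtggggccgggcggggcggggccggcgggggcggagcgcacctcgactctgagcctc

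CYTOR has a partial copy on the same chromosome, MIR4435-2HG, and the start regions of the pair share an unbroken run of 241 bases, given in capitals. The CYTOR window is chr2:87455177-87455476 on the plus strand and the MIR4435-2HG window chr2:111495112-111495411 on the minus strand. Each gene carries the same mature microRNA, miR-4435, whose seed (bases 2 to 8) is in capitals. Of all 50-base stretches in the GENCODE 29 transcripts of CYTOR, 16.0% were found in those of MIR4435-2HG as well, and 21.6% of those of MIR4435-2HG in CYTOR, the longest shared run being 432 bases. A read lying wholly within such a run cannot be assigned to either gene with certainty. How far this affects the values of CYTOR was not tested, as the treatment of reads with several matches is not given.
CYTOR: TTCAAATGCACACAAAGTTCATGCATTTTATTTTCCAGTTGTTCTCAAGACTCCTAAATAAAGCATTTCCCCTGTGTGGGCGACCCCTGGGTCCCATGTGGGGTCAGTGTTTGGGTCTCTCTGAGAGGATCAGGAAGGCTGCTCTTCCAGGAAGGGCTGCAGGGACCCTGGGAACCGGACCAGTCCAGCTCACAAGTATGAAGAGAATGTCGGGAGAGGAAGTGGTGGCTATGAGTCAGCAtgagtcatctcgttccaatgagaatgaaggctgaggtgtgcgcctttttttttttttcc
MIR4435-2HG: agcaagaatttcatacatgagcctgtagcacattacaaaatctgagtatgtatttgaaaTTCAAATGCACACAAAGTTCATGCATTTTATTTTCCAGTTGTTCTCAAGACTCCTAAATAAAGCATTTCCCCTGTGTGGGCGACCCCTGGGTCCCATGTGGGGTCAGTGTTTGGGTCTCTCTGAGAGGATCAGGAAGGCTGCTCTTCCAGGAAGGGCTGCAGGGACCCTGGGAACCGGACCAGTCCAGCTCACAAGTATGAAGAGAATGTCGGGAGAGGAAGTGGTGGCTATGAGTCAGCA
hsa-miR-4435: aUGGCCAGagcucacacagagg

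Both strands of the windows of 300 bases were searched for TGGGAA, the core bound by RBPJ, the DNA-binding partner of NOTCH1, which 24.0% of 35116 RefSeq promoters hold. There was 1 match in CYTOR and 1 in MIR4435-2HG, within the shared run, and 0 in the windows of NALT1, NOTCH1, MIAT and MALAT1. These letters are a description of the windows and not of binding.

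The libraries held 73939612 to 160702764 recovered reads. Values are normalised read counts, reads scaled by the size factor of each library, and changes are on the scale of log2(value + 1). A feature was called where limma's p, adjusted by Benjamini-Hochberg over all features tested, was under 0.05. All 16 markers of T lymphoblasts were expressed, with CD3D at 58190.1 or more in every library, while MS4A1 of B cells and CD33 of myeloid cells were at 0 throughout. Other markers of these lists were present, among them CD79A of B cells at 659.5 to 3042 and, of the 6 myeloid markers, ITGAM at 159.6 to 490.04, CD14 at 9.4 to 33.6 and LYZ at 7.99 to 22.6. The summed myeloid list was 201 to 229 under GSI 48 h, against 262 to 379 under DMSO 48 h, and 215 to 450.5 under GSI 12 h, against 397 to 543 under DMSO 12 h, with CD14 called lower at 12 h (−1.18). The summed list of 4 erythroid markers was 27.5 to 62.5 under GSI 48 h, against 8.73 to 13.6 under DMSO 48 h, and 20.2 to 44.7 under GSI 12 h, against 5.31 to 15.9 under DMSO 12 h. ALAS2, an enzyme of haem synthesis, was its called gene (1.65 at 12 h and 2.13 at 48 h), while HBB, a haemoglobin gene, stayed at 0.742 or less. The part of these lists in the members' results was not tested. Of the NOTCH1 target genes, 7 of 16 were called lower under the GSI than the DMSO label at 12 h and 3 of 16 at 48 h, beside 11.4% and 5.35% of all features tested. Under the 48 h label 11 of 16 were called lower than under the 12 h label in DMSO and 12 of 16 in GSI, beside 2.51% and 2.37%. The feedback inhibitor NRARP changed by −0.96 and −0.83 on the log2 scale between treatment labels (12 h and 48 h), but by −3.82 between time labels in DMSO and −3.69 in GSI. DTX1, a ubiquitin ligase of the pathway, gave −0.49 and −0.49, against −2.87 and −2.87, and HES1, a repressor, 0.15 and −0.33 (neither called), against −0.66 (not called) and −1.14. A gamma-secretase inhibitor is known to lower these genes, and here the changes of NRARP and DTX1 were larger between time labels than between treatment labels. The groups are therefore named by their labels throughout, and every direction is drawn from those labels.

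NALT1 (ENSG00000237886) was higher under the GSI label than under the DMSO label, while NOTCH1 beside it was lower. CUTLL1 carries a rearranged NOTCH1, and counts per gene do not separate its transcripts from those of any unrearranged copy. The part of each in the NOTCH1 values was not tested. In bulk RNA a change in the number of cells of a type and a change in the RNA per cell cannot be told apart. In the libraries numbered 1, 2 and 3, NALT1 had normalised read counts of 601, 398 and 559 under the GSI 48 h label and of 384, 262 and 385 under DMSO 48 h. The 12 h libraries held more, with 1171, 824 and 897 under GSI and 500, 431 and 728 under DMSO. The GSI and DMSO libraries did not overlap at either time, and library 2 was the lowest of its group in all 4 groups. At 12 h NALT1 rose by 0.82 ± 0.23 SE on the log2 scale, a 1.77-fold difference (limma adjusted p = 0.0242). That call was lost without the GSI 12 h library numbered 1 (adjusted p = 0.108) or 3 (0.0511) and without the DMSO 12 h library numbered 1 (0.0677) or 2 (0.105). At 48 h the change was 0.59 ± 0.23 SE and was not called (limma adjusted p = 0.106). Same-numbered GSI and DMSO libraries deviated together only weakly at 48 h (r of 0.103, 0.157 and 0.104 across genes). With the replicate number as a block, limma gave an adjusted p = 0.0154 at 48 h. Leaving out GSI 48 h library 2 gave 0.0473. The difference between the GSI effects at 48 h and 12 h was −0.23, with a 95% interval of −0.93 to 0.47.

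Between the time labels NALT1 was lower at 48 h. In GSI it fell by 0.90 ± 0.23 SE on the log2 scale (limma adjusted p = 0.0455), and in DMSO the change was −0.67 ± 0.23 SE (limma adjusted p = 0.129, and 0.0150 with the replicate block). The GSI call held with the replicate block (limma adjusted p = 0.00449) and in DESeq2 (adjusted p = 0.00452), but was lost in 15 of 22 alternatives. Among these were the fits without any 1 of the 6 GSI libraries, without DMSO 48 h library 1 or 3 and without DMSO 12 h library 1, in which the adjusted p lay between 0.0548 and 0.174. Upper-quartile scaling (adjusted p = 0.0768), TMM scaling (0.0509), edgeR (0.0564), no filter on low values (0.0564) and a fit of the GSI libraries alone (0.0557) lost it as well.

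NOTCH1 (ENSG00000148400) itself had 139715, 155797 and 183726 under GSI 48 h, against 200991, 202915 and 186130 under DMSO 48 h. At 12 h it had 112572, 122679 and 139943 under GSI and 207364, 198895 and 186896 under DMSO. It was lower in each of the 6 same-numbered pairs, and it fell by 0.67 ± 0.11 SE on the log2 scale at 12 h (limma adjusted p = 0.00309). At 48 h its change was −0.31 ± 0.11 SE (limma adjusted p = 0.0813, and 0.0435 with the replicate block). The GSI effect on NOTCH1 differed by 0.36 between 48 h and 12 h (limma adjusted p = 0.999, and 0.00367 with the block within treatment).

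The ratio of NALT1 to NOTCH1 within a library takes no part of the scaling between libraries. Per 1000 NOTCH1 reads there were 3.30 ± 0.90 NALT1 reads under GSI 48 h and 1.76 ± 0.41 under DMSO 48 h, and 7.84 ± 2.22 under GSI 12 h and 2.82 ± 0.94 under DMSO 12 h (SD, n = 3 each). The ratio was 2.29-fold higher in GSI than in DMSO libraries over both times (log2 difference 1.19, two-sided exact permutation p = 0.005, the smallest that the 400 arrangements within times allow), and higher in 6 of 6 same-numbered pairs. Its difference was 1.49 at 12 h and 0.90 at 48 h on the log2 scale, with no overlap at either time. Between time labels it was lower at 48 h by a log2 difference of −0.96 (exact permutation p = 0.005). Adjusted over the 4 ratio tests, both exact p-values were 0.01. The permutations treat the libraries as independent, while same-numbered libraries deviate together across times. With the 3 library numbers as units, an alternative added after the data were seen, the exact sign-flip p was 0.25, the smallest that 3 units allow. NALT1 and NOTCH1 share no exon in GENCODE 29, but whether the authors' counting used strand is not given in the sources used here.

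**Figure D1:**
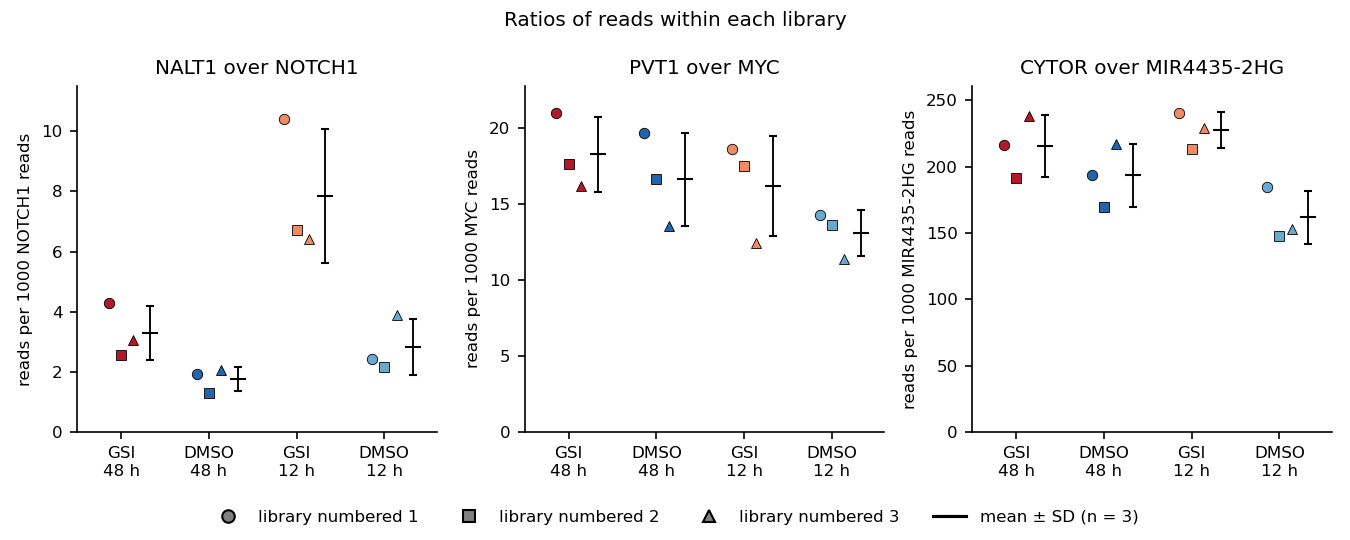
Reads of a long RNA per 1000 reads of its partner gene in each library (vertical axes from 0), for NALT1 over NOTCH1, PVT1 over MYC and CYTOR over MIR4435-2HG, with the mean and SD of 3 libraries beside the points. For NALT1 over NOTCH1 the GSI and DMSO libraries do not overlap at 48 h or at 12 h, while for PVT1 over MYC they overlap at both.

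PVT1 (ENSG00000249859) was lower under the 48 h than the 12 h labels and was not called between treatment labels. Its values were 172, 190.0 and 168 under GSI 48 h and 231, 219 and 165 under DMSO 48 h. At 12 h they were 311, 306 and 279 under GSI and 367, 402 and 300 under DMSO. Every 48 h library lay below every 12 h library, whereas GSI and DMSO libraries overlapped at both times. PVT1 fell by 0.80 ± 0.17 SE on the log2 scale between the 48 h and 12 h labels in DMSO (limma adjusted p = 0.0157) and by 0.76 ± 0.17 SE in GSI (0.0212). Without DMSO 48 h library 3 or DMSO 12 h library 2 the DMSO call was lost (adjusted p = 0.0701 and 0.0898). In GSI it was lost without GSI 48 h library 1 (0.0716) or 3 (0.0856) and without GSI 12 h library 1 (0.0793) or 2 (0.0575). The treatment changes were −0.24 (95% interval −0.60 to 0.12) at 12 h and −0.20 (−0.56 to 0.16) at 48 h.

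MYC, which GENCODE 29 places 53.1 kb from PVT1 on chromosome 8, moved with the time labels as well. It had 9760.4 ± 1384 under GSI 48 h, 12351 ± 729 under DMSO 48 h, 18876 ± 3099.9 under GSI 12 h and 27153.5 ± 2016 under DMSO 12 h (SD, n = 3 each). In DMSO it fell by 1.14 ± 0.12 SE on the log2 scale between time labels (limma adjusted p = 0.000201) and in GSI by 0.95 ± 0.12 SE (0.000596). Between treatment labels it fell by 0.53 ± 0.12 SE at 12 h (adjusted p = 0.0113, and 0.0595 and 0.0539 without GSI 12 h library 1 and DMSO 12 h library 2). At 48 h its change was −0.35 (limma adjusted p = 0.0864, 0.0247 with the replicate block and 0.0483 without GSI 12 h library 3).

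Per 1000 MYC reads there were 18.3 ± 2.47 PVT1 reads under GSI 48 h, 16.6 ± 3.04 under DMSO 48 h, 16.2 ± 3.28 under GSI 12 h and 13.1 ± 1.52 under DMSO 12 h (SD, n = 3 each). The ratio differed by 0.22 on the log2 scale between treatment labels (two-sided exact permutation p = 0.15, adjusted 0.15) and by 0.26 between time labels (p = 0.08, adjusted 0.107). Each difference went the same way in 6 of 6 same-numbered pairs.

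NEAT1 (ENSG00000245532) had the largest rise among members under the GSI label at 12 h. Its counts were 70352.5, 38792 and 62908 under GSI 48 h, against 47571, 27061 and 32038 under DMSO 48 h. Under GSI 12 h they were 81191, 42864 and 80141, against 36755, 19089.6 and 29146 under DMSO 12 h. Library 2 was the lowest of its group in all 4 groups, and every GSI library lay above its same-numbered DMSO library. At 12 h the groups did not overlap, and NEAT1 rose by 1.26 ± 0.31 SE on the log2 scale (2.39-fold, limma adjusted p = 0.0135). The call was lost without GSI 12 h library 1 (adjusted p = 0.0655) or 3 (0.0522) and without DMSO 12 h library 2 (0.0643). At 48 h the groups overlapped and the change was 0.69 ± 0.31 SE (limma adjusted p = 0.152), with pair ratios of 1.48, 1.43 and 1.96. With the replicate block the 48 h adjusted p was 0.00172. Between time labels NEAT1 changed by 0.34 in DMSO and −0.23 in GSI, neither called. The GSI effect at 48 h minus that at 12 h was −0.57 (limma adjusted p = 0.999, and 0.00443 with the block within treatment).

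Of 17 paraspeckle protein genes kept, 10 fell and 0 rose under the GSI label at 12 h, beside 11.4% of all features tested called lower. At 48 h 2 fell, beside 5.35% of features. The list medians were −0.28 and −0.21 on the log2 scale, beside 0.00064 and −0.0039 over all features tested. The RNA-binding proteins HNRNPM (−1.11 and −0.97) and EWSR1 (−0.51 and −0.45) fell most at both times. The core proteins NONO (−0.036 and −0.054), SFPQ (−0.30 and −0.28) and PSPC1 (0.080 and −0.042), named after their values were seen, were not called at either time, and no gene of the list was called between time labels. The architectural RNA and part of the protein list thus had opposite signs.

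MALAT1 (ENSG00000251562), which GENCODE 29 places 52.1 kb from NEAT1, was not called in any comparison. It ranged from 20299.8 to 26487 under GSI 48 h, from 17193 to 34487.5 under DMSO 48 h, from 15082 to 33080.5 under GSI 12 h and from 17281 to 28898 under DMSO 12 h, so all groups overlapped. The treatment changes were 0.079 at 12 h (95% interval −0.54 to 0.69) and −0.053 at 48 h (−0.67 to 0.56). Library 3 had 1.91 times the MALAT1 of its DMSO partner at 12 h, while the pairs numbered 1 and 2 had 0.88 and 0.70 times. Of 20 genes for nuclear speckle proteins and splicing factors, 6 fell and 0 rose at 12 h under the GSI label. Of all features tested, 11.4% were called lower and 10.1% higher there. U2AF2, a subunit of the factor that recognises the 3′ splice site, fell by 0.54 on the log2 scale and SRSF1, a splicing regulator bound by MALAT1, by 0.50. At 48 h 1 rose, LUC7L3 (0.39), and 1 fell, U2AF2 (−0.42). No gene of that list was called between time labels.

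MIAT (ENSG00000225783) was higher under the GSI label at both times. It had 29630.3, 16696 and 23362 under GSI 48 h, against 15306, 13576 and 12539 under DMSO 48 h. At 12 h it had 23118, 14716 and 20195 under GSI, against 13521, 12759 and 13161 under DMSO. The groups did not overlap at either time, and the GSI library numbered 2 was the lowest of its group both times. MIAT rose by 0.72 ± 0.19 SE on the log2 scale at 48 h (1.64-fold, limma adjusted p = 0.0337). This call was lost without GSI 48 h library 1 (adjusted p = 0.154) or 3 (0.120) and without DMSO 48 h library 1 (0.0662), 2 (0.0975) or 3 (0.0873). At 12 h the change was 0.53 ± 0.19 SE and was not called (limma adjusted p = 0.0569). edgeR (0.0470), DESeq2 (0.0230) and upper-quartile scaling (0.0466) called it at 12 h, as did the fit of the compared groups alone (0.0425) and those without GSI 12 h library 2 (0.0120) or GSI 48 h library 1 (0.0351) or 2 (0.0248). Between time labels it changed by 0.066 in DMSO and 0.25 in GSI, neither called. MIAT overlaps the long RNAs MIATNB and Z99774.1 in GENCODE 29, so part of its reads may be theirs.

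HOTAIRM1 (ENSG00000233429) rose under the GSI label at both times. It had 426, 303 and 391 under GSI 48 h, against 190.4, 189 and 279 under DMSO 48 h, and 340.1, 315 and 367 under GSI 12 h, against 134, 177 and 227 under DMSO 12 h. Neither pair of groups overlapped, and all 6 same-numbered pairs were higher under GSI, by 1.40 to 2.53 times. At 12 h it rose by 0.95 ± 0.22 SE on the log2 scale (1.93-fold, limma adjusted p = 0.0104), a call that held in all 22 alternatives. At 48 h it rose by 0.77 ± 0.22 SE (1.71-fold, limma adjusted p = 0.0418). The 48 h call was lost with no filter on low values (0.0608) and without GSI 48 h library 1 (0.173) or 3 (0.141), DMSO 48 h library 1 (0.115) or 2 (0.136) or GSI 12 h library 1 (0.0547). Time labels gave 0.30 in DMSO and 0.12 in GSI, neither called.

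CYTOR (ENSG00000222041) was the only member called lower under the GSI label, and that at 48 h alone. It had 524, 574 and 536 under GSI 48 h, against 745, 656 and 841 under DMSO 48 h. At 12 h it had 1001, 899.7 and 896 under GSI, against 916, 855 and 834 under DMSO. The 48 h groups did not overlap and the 12 h groups did. CYTOR fell by 0.45 ± 0.12 SE on the log2 scale at 48 h (limma adjusted p = 0.0336), and changed by 0.10 ± 0.12 SE at 12 h (0.561). The 48 h call was lost with upper-quartile scaling (0.0752), in the fit of the compared groups alone (0.0544) and without GSI 48 h library 1 (0.136) or 3 (0.119) or DMSO 48 h library 1 (0.0834) or 3 (0.102). Between the GSI time labels it fell by 0.77 ± 0.12 SE (limma adjusted p = 0.00172, held in all 23 alternatives), against a change of −0.22 in DMSO (0.361).

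The partial copy MIR4435-2HG (ENSG00000172965) is known in mouse myeloid cells as a regulator of the neighbouring BCL2L11. It was lower under the GSI label at both times, with 2557 ± 392 under GSI 48 h and 3864 ± 12.3 under DMSO 48 h, and 4099 ± 168 under GSI 12 h and 5404 ± 419 under DMSO 12 h (SD, n = 3 each). It fell by 0.61 at 48 h (limma adjusted p = 0.00918), by 0.40 at 12 h (0.0196), and between time labels by 0.48 in DMSO (0.0206) and 0.69 in GSI (0.00186). Leaving out GSI 12 h library 1 (0.0597) or 3 (0.0624) or DMSO 12 h library 2 (0.0859) ended the 12 h call, and leaving out GSI 48 h library 1 (0.0546) or 3 (0.0583) the 48 h call. The call between DMSO time labels was lost without any 1 of the DMSO 48 h libraries (0.0650 to 0.0657) and without DMSO 12 h library 2 (0.110) or 3 (0.0708). With both copies summed, an alternative added after the data were seen, the 12 h value of CYTOR was −0.32 (limma adjusted p = 0.0346) in place of 0.10, since MIR4435-2HG holds most of the reads of the sum.

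**Figure D2:**
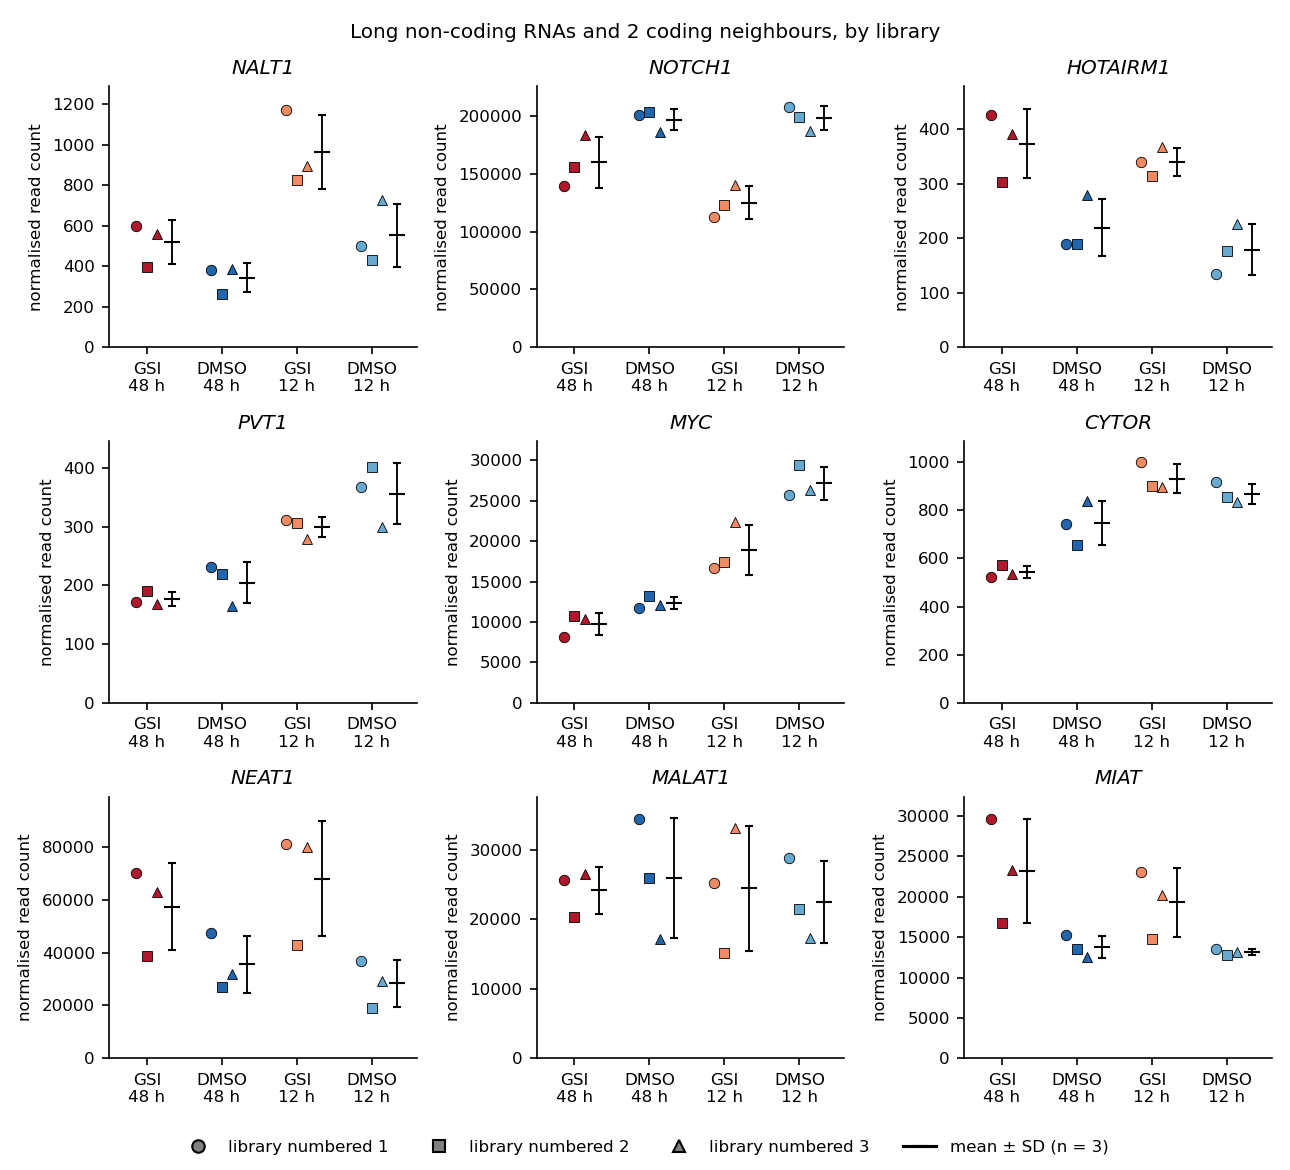
Normalised read counts (vertical axes from 0) of the 7 long RNAs, NOTCH1 and MYC in each of the 12 libraries, with marker shape for the library number and the mean and SD of 3 libraries beside the points. NALT1, MIAT and HOTAIRM1 separate GSI from DMSO libraries at both times, PVT1 and MYC separate 48 h from 12 h libraries, and CYTOR is lowest in the GSI 48 h libraries.

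Counting over members, 3 of 7 were called at 12 h between treatment labels, NALT1, NEAT1 and HOTAIRM1, all higher, where 21.5% of all features tested were called (10.1% higher and 11.4% lower). At 48 h 3 of 7 were called, MIAT and HOTAIRM1 higher and CYTOR lower, beside 9.68% of features (4.33% higher and 5.35% lower). With the replicate block the 48 h count was 5, with NALT1 and NEAT1 added, beside 27.3% of features. Over all features the split was 1943 higher and 2201 lower at 12 h and 834 and 1032 at 48 h, and with upper-quartile scaling it was 2536 and 1585 at 12 h and 1220 and 682 at 48 h. No called member changed its sign under that scaling. The groups did not overlap for 4 of 7 members at 12 h and 4 of 7 at 48 h, beside 36.3% and 35.4% of features, and between time labels for 2 of 7 in DMSO and 3 of 7 in GSI, beside 24.3% and 19.9%. Between time labels 1 of 7 was called in DMSO, PVT1, lower, beside 4.53% of features (2.03% higher and 2.51% lower). The block made it 2 of 7, beside 12.3%. In GSI 3 of 7 were called, NALT1, PVT1 and CYTOR, all lower, beside 3.98% of features (1.62% higher and 2.37% lower), and 3 with the block, beside 10.1%. DESeq2 called 4 members at 12 h and 3 at 48 h, beside 26.1% and 16.8% of features, and between time labels 2 in DMSO and 3 in GSI, beside 8.09% and 6.54%. For the difference between the GSI effects at 48 h and 12 h limma called 0 of 7 members, beside 0% of features. There 1 member and 875 features had an unadjusted p under 0.05, edgeR called 0 features and DESeq2 61 (0.316%) with no member, and the block within treatment called CYTOR and NEAT1, beside 6.1% of features.

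**Figure D3:**
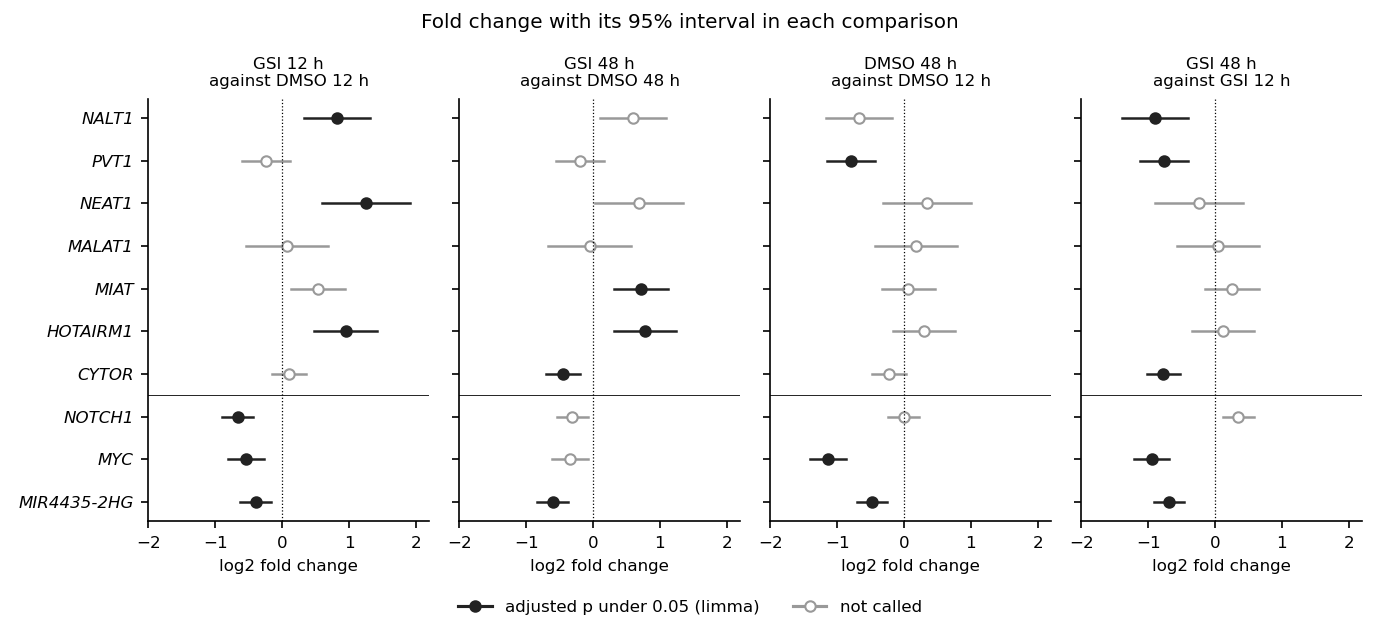
Log2 fold changes (horizontal axes) of the 7 long RNAs and, under the line, of NOTCH1, MYC and MIR4435-2HG in the 4 comparisons, with 95% intervals from limma and filled points for an adjusted p under 0.05. NEAT1, HOTAIRM1 and NALT1 lie to the right of 0 in the first panel with NOTCH1 and MYC to the left, and PVT1, CYTOR and NALT1 lie to the left in the last.

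Hypoxia-induced genes moved with the same labels as NALT1, NEAT1, MIAT and HOTAIRM1. Of 20 such genes 18 rose at 12 h and 9 at 48 h under the GSI label and none fell, with medians of 2.19 and 1.57 on the log2 scale. Of all features tested, 10.1% were called higher at 12 h and 4.33% at 48 h. ADM, the vasodilator peptide adrenomedullin, rose by 6.59 and 3.67, the mitophagy receptor BNIP3 by 4.003 and 2.34, and the angiogenic factor VEGFA changed by 1.31 (not called) and 1.62 (called). The summed count of the list was 63563.5 to 152929 under GSI 48 h, against 46084 to 49590 under DMSO 48 h, and 85052.5 to 226249 under GSI 12 h, against 48713 to 52585 under DMSO 12 h. The list median relative to the mean of all libraries was 1.23, −0.16 and 0.58 in the GSI 48 h libraries 1, 2 and 3, and 1.77, 0.20 and 1.87 in the GSI 12 h libraries. In DMSO libraries it lay between −1.08 and −0.70. GSI libraries numbered 2 were thus the lowest of their groups for this list, as they were for NEAT1, MIAT, NALT1 and HOTAIRM1. NEAT1 and NALT1 were lowest in library 2 of both DMSO groups too (27061 and 262 at 48 h, 19089.6 and 431 at 12 h). There the list medians of libraries 1, 2 and 3 were −1.06, −1.08 and −0.77 at 48 h and −0.85, −0.83 and −0.70 at 12 h. Without both GSI libraries numbered 2, a choice made after the data were seen, MIAT rose by 0.72 at 12 h (limma adjusted p = 0.00158), NEAT1 by 0.95 at 48 h (0.0257) and NALT1 by 0.77 at 48 h (0.0413). As these libraries were the lowest for these genes, larger rises followed from the choice, and these p-values are no support. Calls over all features rose as well, from 4144 to 5743 at 12 h and from 1866 to 4042 at 48 h. The part of the hypoxia-induced genes in these results was not tested.

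**Figure D4:**
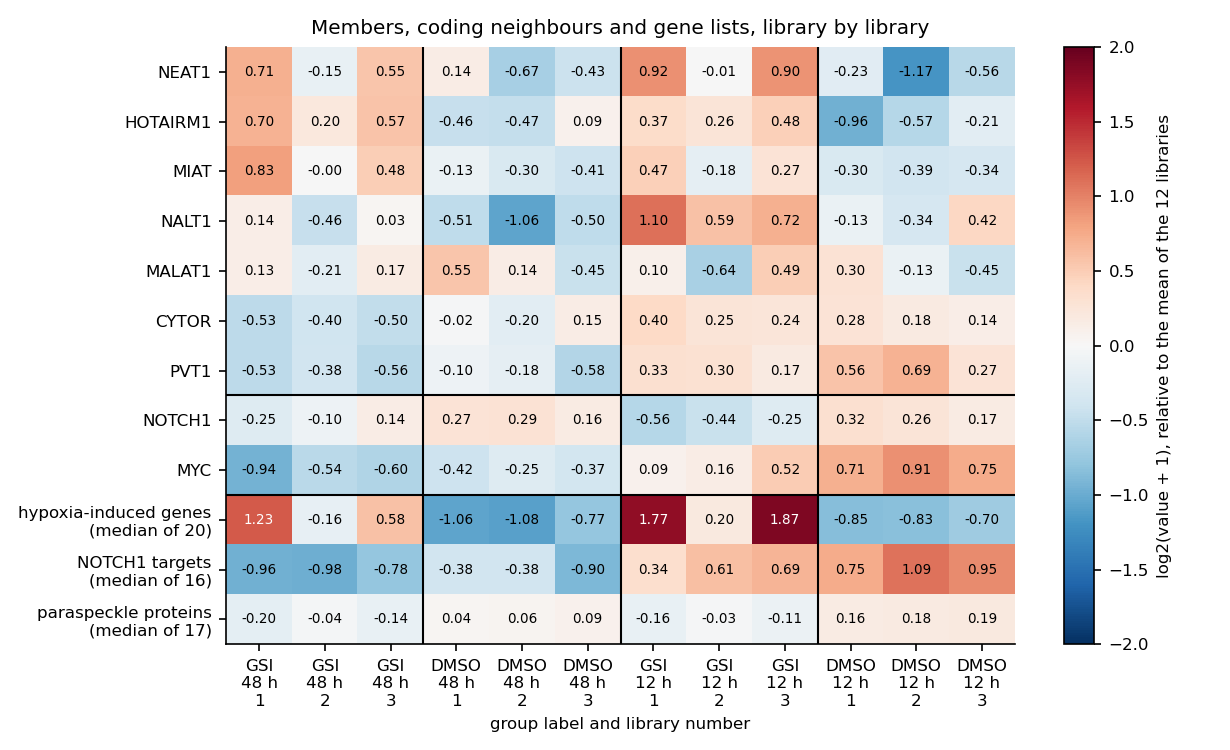
Each cell gives log2(value + 1) of a long RNA or coding neighbour, or the median of a gene list, in 1 library relative to the mean of the 12 libraries, with columns grouped by label. NEAT1, HOTAIRM1 and MIAT and the hypoxia-induced genes are mostly red in GSI columns and palest in those numbered 2, and the NOTCH1 targets change between the 48 h and 12 h columns.

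Other long RNAs described in leukaemia or T cells were counted as a list. Of 43 listed, 36 were matched and 25 kept. At 12 h 3 rose under the GSI label, LINC-PINT (1.28), known as a target of p53, ZEB1-AS1 (0.75) and LEF1-AS1 (0.59), both antisense to transcription factor genes, and 2 fell, SNHG1 (−0.45), a host of small nucleolar RNAs, and MIR4435-2HG. Over all features tested, 10.1% were called higher and 11.4% lower at 12 h, so the list was near the share of all features. At 48 h MIR4435-2HG alone was called, lower, beside 4.33% of features called higher and 5.35% lower. Between time labels MIR4435-2HG fell in DMSO, and in GSI it fell together with MIR155HG (−0.81), the host transcript of miR-155. The list medians were −0.055 and 0.023 between treatment labels at 12 h and 48 h. Of the 7 coding neighbours of members that were kept, NOTCH1 and MYC were the only ones called in any of the 4 comparisons. FRMD8 (−0.32 at 12 h and −0.31 at 48 h) and LTBP3 (0.44 and 0.29), next to NEAT1 and MALAT1, and TFIP11 (−0.24 and −0.17), next to MIAT, were not called.

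Levels of the members were compared per kilobase of GENCODE 29 exon sequence. MALAT1 (2736 ± 381 under GSI 48 h, 2933 ± 979 under DMSO 48 h, 2773 ± 1022 under GSI 12 h and 2553 ± 667 under DMSO 12 h; SD, n = 3) was the highest except under GSI 12 h, where NEAT1 had 2990 ± 959. For MALAT1 and NEAT1 the ranges of mean ± SD overlapped except under DMSO 12 h, and for NEAT1 and MIAT except under GSI 12 h. NALT1 came next in every group, with a mean level of 316 to 886 per kilobase, and then HOTAIRM1 with 120.0 to 249.6. PVT1 (32.1 to 64.8) and CYTOR (30.8 to 52.7) were lowest, and their ranges of mean ± SD overlapped except under DMSO 12 h. NOTCH1 reached 12052 to 19053.5 and MYC 3252 to 9048 on the same scale.

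Among 13050 features with a symbol and a mean of at least 50, the nearest profiles over the 12 libraries were taken by the root mean square difference of centred log2 values. ATG16L2 was nearest to NALT1 (0.21, where the profile of NALT1 itself spreads by 0.59), followed by LINC01659 and FBLN2. TRMT2A (0.14), GFOD1 and the T-cell kinase gene ZAP70 were nearest to PVT1, ZC3H6 (0.18), EOLA2-DT and MIR641 to NEAT1, and FLCN (0.17), NPIPB4 and FNIP1 to MALAT1. AP1G2 (0.099), SEC31B and RUSC1-AS1 were nearest to MIAT, MAGED4B (0.13), ARHGAP11A-DT and ZNF610 to HOTAIRM1, and TRIM16 (0.14), NCKAP1 and RPTOR to CYTOR.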

How the data were processed

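Poly-A RNA was sequenced from 12 CUTLL1 libraries in 4 labelled groups of 3. The deposited values are a signal: in each library they are whole multiples of 1 step, as read counts per Ensembl gene divided by a size factor are. The submitters' processing notes name TopHat2 2.0.10, HTSeq 0.6.1, FastQC 0.10.1, DESeq2 and the build hg19. The sources used here do not give the annotation, the strand setting or the treatment of reads with several matches. Poly-A selection recovers RNAs without a poly-A tail, among them MALAT1 and the long form of NEAT1, only in part, and its part in the results was not tested.

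Whole reads were recovered for 100% of values within a tolerance of 0.01, giving 73939612 to 160702764 per library. A symbol was matched for 39007 of 62069 features and for 16495 of the 19281 kept, those that reached a value of 10 in 3 libraries or more. Tests used limma 3.58.1 (R 4.3.3), its prior trended on the mean, on log2(value + 1) of all 12 libraries. Benjamini-Hochberg adjustment ran over all features kept, with a call at an adjusted p under 0.05. This scale understates changes of low genes. edgeR 4.0.16 (quasi-likelihood) and DESeq2 1.42.0 on recovered reads were alternatives. edgeR called 4201 features at 12 h and 1919 at 48 h between treatment labels, and 931 in DMSO and 740 in GSI between time labels. Other alternatives were the pseudocount, the filter, the scaling, the replicate block, the compared groups alone and leaving out each library. Ratios were tested by exact permutation within times or treatments. The limma step was tested on simulated data.

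Same-numbered libraries deviated together between times within a treatment (r of deviations across genes 0.40 to 0.61). Between treatments they did so only weakly (0.103, 0.157 and 0.104 at 48 h, and 0.096, 0.272 and 0.068 at 12 h). The members, lists and tests were chosen with earlier results of these data known. The text names all members, NOTCH1, MYC and MIR4435-2HG. Of other long RNAs it names at most 3 called each way whose higher group averaged 50 or more, of paraspeckle and speckle genes at most 2 each way, besides coding neighbours kept and set examples of the hypoxia and NOTCH1 lists. Some items that this rule names are not reported here.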

Additional observations from a re-analysis of the deposited data

Results flagged for a closer look

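The change of CYTOR under the GSI label differed between the times, by −0.55 on the log2 scale (48 h effect minus 12 h effect, 95% interval −0.91 to −0.19). CYTOR averaged 545 ± 25.8 under GSI 48 h and 747 ± 92.3 under DMSO 48 h, and 932 ± 59.6 under GSI 12 h and 868 ± 42.9 under DMSO 12 h (SD, n = 3 each). The test of the difference itself in limma gave an unadjusted p of 0.00523 and an adjusted p of 0.776 over all features, and 0.0260 with the block within treatment, and DESeq2 gave 0.146. All 3 same-numbered pairs were lower under GSI at 48 h and all 3 were higher at 12 h. The 12 h groups overlapped, however, and the library numbers pair only weakly between treatments. For the partial copy MIR4435-2HG the same difference was −0.21 (adjusted p = 0.999), with lower values under GSI in all 3 pairs at both times. The part of reads shared between the copies was not tested.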

How the results depend on the processing

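The count of members called was 3 at 12 h and 3 at 48 h between treatment labels, 1 in DMSO and 3 in GSI between time labels, and 0 for the difference of the GSI effects. With the replicate block it was 5 at 48 h and 2 in DMSO, and 2 for the difference with the block within treatment. Between treatments, same-numbered libraries had r of 0.096, 0.272 and 0.068 across genes at 12 h and 0.103, 0.157 and 0.104 at 48 h. Differently numbered ones reached 0.139 at 12 h and 0.050 at 48 h, so pairing between treatments was weak at both times. The block is 1 fit over both times, and at 12 h it gave 4 members with MIAT added (limma adjusted p = 0.0103). Over all features the block called 6951 at 12 h, against 4144 without it, and 5261 at 48 h, against 1866, and between time labels 2368 in DMSO, against 874, and 1941 in GSI, against 768. DESeq2 called 2 members between DMSO time labels, and over all features 3242 at 48 h and, between time labels, 1560 in DMSO and 1261 in GSI. With no filter 1075 features were called at 48 h, and the fit of the compared groups alone called 2607 at 12 h and 477 between GSI time labels. Without both GSI libraries numbered 2 there were 5 members at 48 h, beside 4042 of 19281 features, and 1 between GSI time labels, beside 427. Leaving out 1 library gave 1 to 4 members at 12 h, 0 to 4 at 48 h, 0 to 1 in DMSO, 1 to 3 in GSI and 0 to 0 for the difference. Over all features the same fits called 1599 to 5662 at 12 h, 119 to 3036 at 48 h, 353 to 1066 in DMSO and 443 to 737 in GSI. The counts of members did not always move with those of all features. At 48 h DESeq2 called 3 members, as limma did, with 3242 features against 1866. Between GSI time labels the block kept 3 members, with 1941 features against 768.

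The PVT1 to MYC log2 differences of 0.219 (treatment) and 0.264 (time) passed only in the planned replicate block (exact sign-flip p = 0.03125). Its sign flips take 6 same-numbered pairs as independent. For the treatment difference, same-numbered libraries deviate together across times and only weakly between treatments, so that block supports nothing. For the time difference its pairs join 48 h and 12 h libraries of the same treatment, which do deviate together. Pairs of DMSO and of GSI libraries are linked only weakly. The sign-flip p for time is the smallest that 6 pairs allow and is not adjusted over the 4 ratio tests. The exact permutation p for time was 0.08. A replicate block with the 3 library numbers as units was added after the data were seen. Its exact sign-flip p was 0.25, the smallest that 3 units allow. This held for both PVT1 to MYC differences and those of NALT1 to NOTCH1 (1.19 and −0.956). With 1 library left out the PVT1 to MYC differences lay at 0.15 to 0.31 and 0.18 to 0.33, and those of NALT1 to NOTCH1 at 1.08 to 1.32 and −1.06 to −0.83.

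Signs turned for values that were not called. CYTOR at 12 h was −0.317 with both copies summed. MALAT1 at 48 h was 0.036 with upper-quartile scaling and 0.067 without both GSI libraries numbered 2, and between GSI time labels −0.016 with edgeR, −0.021 with DESeq2 and −0.149 without both of those libraries. NOTCH1 between DMSO time labels was 0.029 with upper-quartile scaling. With 1 library left out MALAT1 ranged from −0.174 to 0.392 at 12 h, −0.320 to 0.182 at 48 h, −0.060 to 0.442 between DMSO and −0.270 to 0.297 between GSI time labels, and −0.445 to 0.121 for the difference. In the same way MIAT ranged from −0.011 to 0.133 between DMSO time labels and −0.011 to 0.403 for the difference, NEAT1 from −0.537 to 0.026 between GSI time labels, NOTCH1 from −0.047 to 0.032 between DMSO time labels, PVT1 from −0.106 to 0.161 and HOTAIRM1 from −0.362 to 0.014 for the difference. Where no value is given, the cause of these shifts was not tested. Of single-gene results under alternatives, 982 kept sign and side of the threshold, 58 lost and 24 gained a call and 31 changed sign. With 3 libraries a group, changes of the size of the intervals printed cannot be resolved.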
